A study of Mus musculus with 9 samples.

Results

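The 10 genes described here encode the transforming growth factor beta (TGF beta) ligands Tgfb1, Tgfb2 and Tgfb3, the receptors Tgfbr1 and Tgfbr2, the signal transducers Smad2 and Smad3, the inhibitory Smad7, the bone morphogenetic protein Bmp7 and the target gene Ctgf, which the annotation lists under its current symbol Ccn2. They were chosen by name from the probe sets with exactly 1 gene symbol, and all 10 were found among the 19938 genes measured, each with 1 such probe set. RNA of whole kidneys from female wild type mice of mixed FVB/C57BL6 background was hybridised to Affymetrix Mouse Gene 1.0 ST arrays, 1 array per mouse, with 4 mice aged 14 weeks and 5 mice aged 96 weeks. Neither group received a treatment in the labels, and perfused, snap frozen kidneys were used. The deposited values are log2 expression values after the robust multi-array average (RMA) and quantile normalization, so that a difference of 1 is a 2-fold change and levels of different genes cannot be set against each other. The comparison between the ages asks whether these genes of tissue scarring and repair differ in the old kidney.

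In the kidney TGF beta drives the formation of extracellular matrix. The ligand binds the type II receptor, which recruits and activates the type I receptor, and this receptor phosphorylates Smad2 and Smad3, which enter the nucleus together with Smad4 and switch on genes such as Ccn2 and Smad7. Smad7 in turn blocks the receptors. Bmp7 belongs to the same superfamily but signals through other Smads, is made in podocytes and in the distal nephron, and is known to oppose TGF beta in tubular cells.

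RefSeq start sites on GRCm38.p6 were used for 5 of the 10 members (Tgfb1, Tgfb2, Tgfbr1, Tgfbr2 and Smad3). Those used left out 1 chromosome and held none for Tgfb3, Smad2, Smad7, Bmp7 and Ccn2. The 250 bases before the start site are shown for the main ligand Tgfb1 and its type II receptor Tgfbr2, and for Ccn1 and Tgfbi, a relative of Ccn2 and a TGF beta target gene that both passed the test below, so that matches to letters bound by Smads can be seen beside the expression values. Capitals mark matches on either strand to the core of the Smad3 box (CAGAC), a site of BMP responsive Smads (GGCGCC) and the core of the TEAD site (GGAATG), and none of these motifs contains another.
Tgfb1 (chr7:25686752-25687001, + strand): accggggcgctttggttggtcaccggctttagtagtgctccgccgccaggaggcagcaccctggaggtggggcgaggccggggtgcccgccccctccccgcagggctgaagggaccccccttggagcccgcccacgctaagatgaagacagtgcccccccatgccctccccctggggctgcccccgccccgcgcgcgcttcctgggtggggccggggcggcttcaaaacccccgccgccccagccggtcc
Tgfbr2 (chr9:116175364-116175613, - strand): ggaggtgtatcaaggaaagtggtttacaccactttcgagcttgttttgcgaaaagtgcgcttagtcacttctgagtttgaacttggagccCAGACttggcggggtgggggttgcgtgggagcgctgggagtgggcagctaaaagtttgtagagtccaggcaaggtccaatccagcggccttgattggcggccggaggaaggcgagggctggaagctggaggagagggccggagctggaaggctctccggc
Ccn1 (chr3:145649986-145650235, - strand): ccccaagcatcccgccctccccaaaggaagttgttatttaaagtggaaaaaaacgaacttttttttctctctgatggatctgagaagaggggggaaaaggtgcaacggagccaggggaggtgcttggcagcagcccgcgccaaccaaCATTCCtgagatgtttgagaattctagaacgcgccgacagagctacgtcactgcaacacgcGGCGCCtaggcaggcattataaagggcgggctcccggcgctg
Tgfbi (chr13:56609336-56609585, + strand): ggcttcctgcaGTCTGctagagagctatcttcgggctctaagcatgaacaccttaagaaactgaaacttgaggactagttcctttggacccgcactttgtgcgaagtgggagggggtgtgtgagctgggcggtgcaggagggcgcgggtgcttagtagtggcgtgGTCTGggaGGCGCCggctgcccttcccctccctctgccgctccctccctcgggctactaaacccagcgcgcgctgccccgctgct
The stretch before Tgfb1 held none of these letters, and that before Tgfbr2 held 1 CAGAC beginning 160 bases before the start. Before Ccn1 a TEAD core began 103 bases and a GGCGCC 42 bases ahead of the start, and before Tgfbi there were 2 CAGAC, at 239 and 85 bases, and a GGCGCC at 77 bases. Such short letters are common. CAGAC lay in 42.2% of 32851 stretches of this length, GGCGCC in 9.59% and GGAATG in 12.6%, and 3 of the 5 members with a start site used held CAGAC. Tgfbr1 had 2 start sites and held it before only 1 of them, so that this count per member is not a share of stretches. The palindrome GTCTAGAC, found in 0.167% of the stretches, was absent before all 5. A match describes these letters and does not show binding.

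No member passed the test between the ages (limma with Benjamini-Hochberg adjustment over 19938 genes, adjusted p under 0.05), while 6.72% of all genes did, 4.31% upward and 2.4% downward. The smallest adjusted p was 0.098, for Ccn2. At an unadjusted p under 0.05 Smad7 and Ccn2 passed in limma, 2 of 10, against 28.5% of all genes. By the methods' t-test 1 member passed unadjusted and 0 after adjustment, against 25% and 1.84% of all genes. None reached the 1.5-fold change of the methods, which 1.6% of all genes did with an unadjusted p under 0.05 (1.28% upward and 0.321% downward). Ccn2 was also the only member whose ages did not overlap, against 13.3% of all genes (7.49% upward and 5.79% downward). The log2 fold change was above 0 for 8 members and below 0 for Tgfb2 and Bmp7, with a median of 0.08 against -0.03 over all genes. The 95% intervals of all 10 members lay within 1.5-fold in either direction, as did those of 92.1% of all genes, so that a mean change of 1.5-fold or more fell outside each interval.

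**Figure D1:**
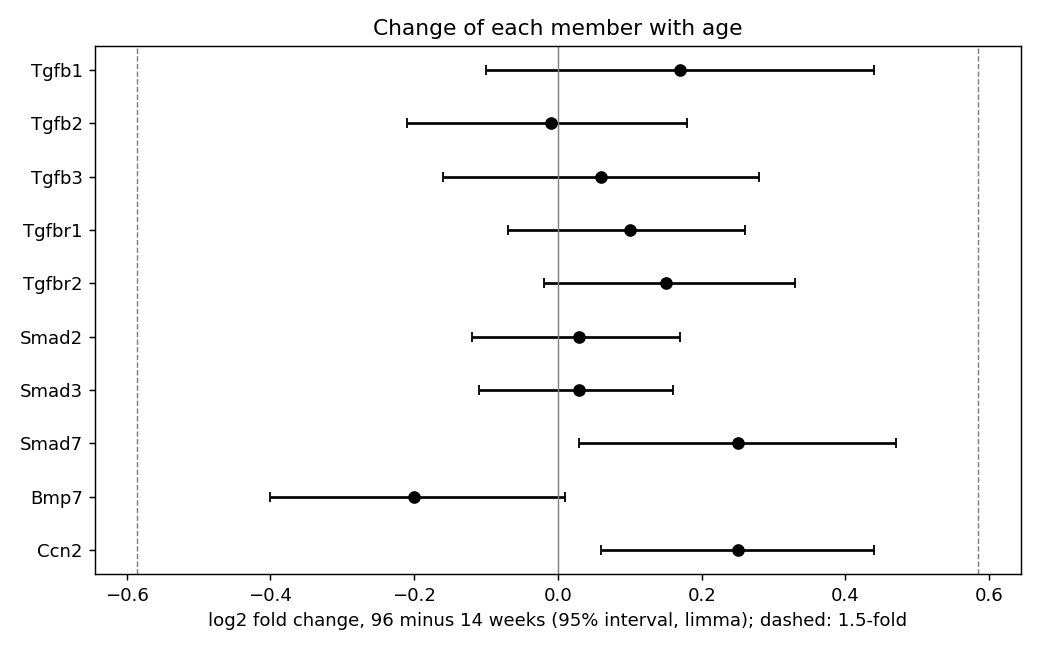
Log2 fold change (96 minus 14 weeks) of the 10 members with its 95% interval from limma (horizontal axis, 4 and 5 arrays), and dashed lines at 1.5-fold. All intervals end inside the dashed lines, and only those of Smad7 (0.03 to 0.47) and Ccn2 (0.06 to 0.44) lie wholly above 0.

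Of the 3 TGF beta ligands, none passed the test between the ages. Tgfb1, the main isoform in injured kidney, had log2 values of 6.65, 7.00, 6.55 and 6.62 in replicates 1 to 4 at 14 weeks, and of 6.69, 6.68, 7.14, 7.07 and 6.80 in replicates 1 to 5 at 96 weeks. Old replicates 3 and 4 were the highest of all 9 kidneys, but young replicate 2 exceeded the other 3 old ones, so that the groups overlapped. The log2 fold change of Tgfb1 was 0.17 (standard error 0.122, adjusted p = 0.36 from limma). It was 0.27 without young replicate 2 and 0.018 without old replicates 3 and 4 together, with no call either way. Tgfb3, an isoform known from palate and lung development, ranged from 5.47 to 5.55 at 14 weeks, a span far narrower than that from 5.31 to 5.83 at 96 weeks. Old replicates 3 (5.75) and 4 (5.83) lay above all young kidneys, and old replicates 2 (5.31) and 5 (5.41) lay below all of them. Its log2 fold change was 0.06 (standard error 0.1) with all arrays and -0.08 without these replicates 3 and 4. Tgfb2, an isoform needed for kidney development, differed by -0.01 on the log2 scale (standard error 0.0885) and took both signs among the alternatives. It was highest in old replicate 3 (6.99) and lowest in old replicate 4 (6.56), so that these 2 kidneys, alike for Tgfb1 and Tgfb3, lay at opposite ends. In whole kidney RNA a lower level cannot be told apart from fewer cells that make the transcript, and a higher level not from more such cells.

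**Figure D2:**
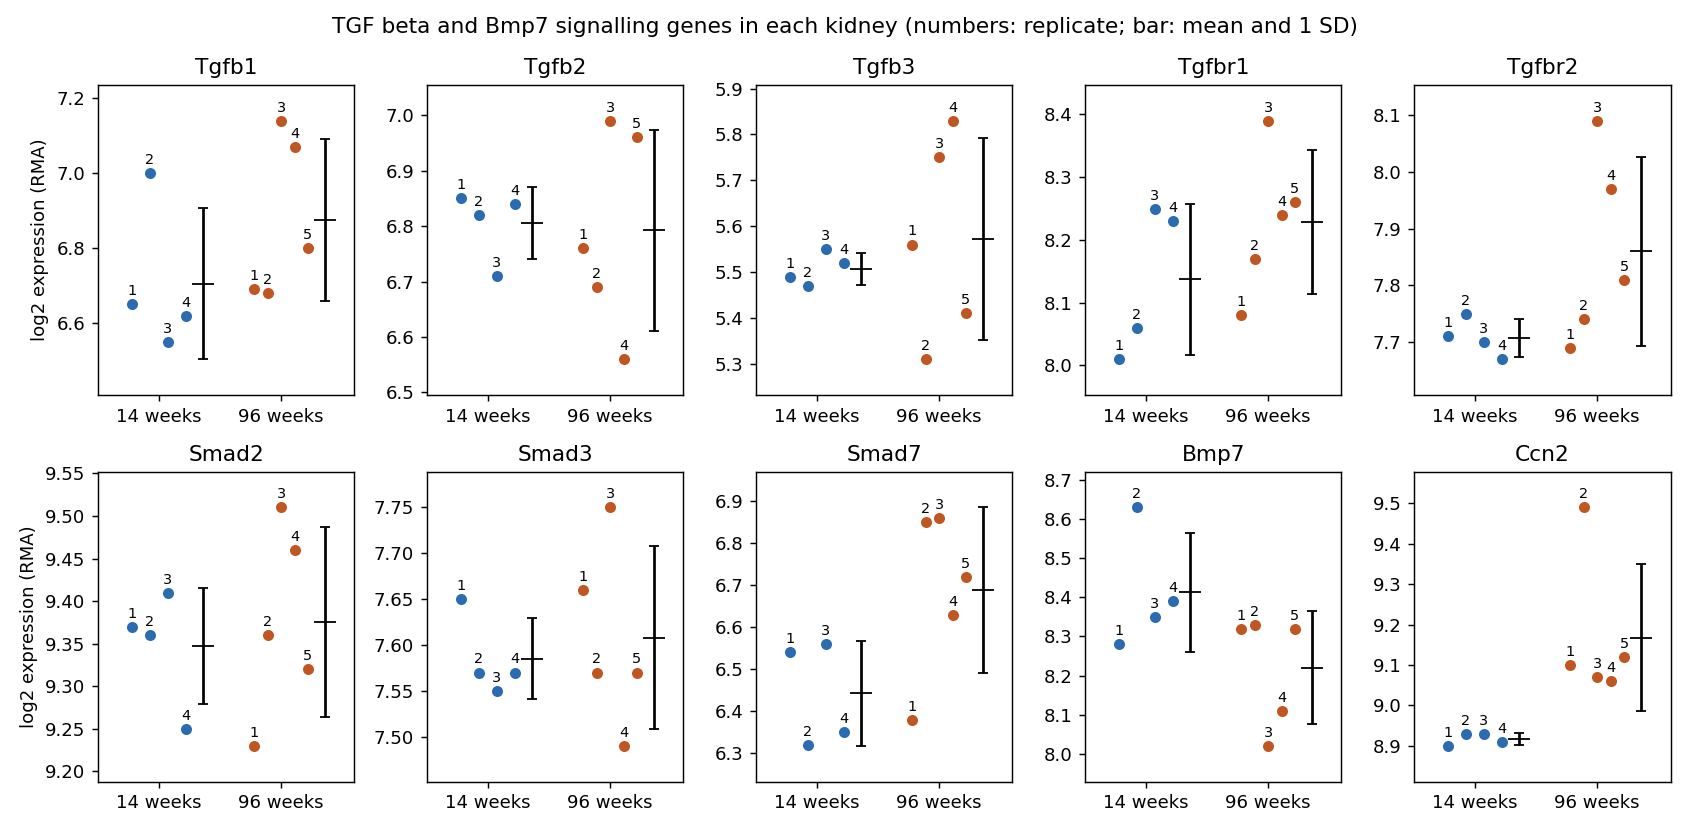
Log2 RMA expression (vertical axis, a separate scale per gene) of each member in the 4 kidneys at 14 weeks and the 5 at 96 weeks. Points are mice with their replicate number, and the black marker gives mean and SD per age; only for Ccn2 do all old kidneys (9.06 to 9.49) lie above all young ones (8.90 to 8.93).

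The receptors and the Smads that carry the signal did not pass either. Tgfbr2, the receptor that binds the ligand, had log2 values of 7.71, 7.75, 7.70 and 7.67 at 14 weeks and of 7.69, 7.74, 8.09, 7.97 and 7.81 at 96 weeks. Old replicates 3, 4 and 5 exceeded every young kidney, whereas old replicates 1 and 2 lay among the young ones. The log2 fold change of 0.15 (standard error 0.0803) did not pass (adjusted p = 0.23 from limma), and it was 0.043 without old replicates 3 and 4. Tgfbr1, the kinase that phosphorylates the Smads, ranged from 8.01 to 8.25 at 14 weeks and from 8.08 to 8.39 at 96 weeks. Its log2 fold change of 0.10 (standard error 0.0762) was 0.05 without young replicate 1 or without old replicate 3, and -0.0013 after a repeated quantile normalization. Smad2 ranged from 9.25 to 9.41 at 14 weeks and from 9.23 to 9.51 at 96 weeks, and Smad3 from 7.55 to 7.65 and from 7.49 to 7.75. Both had a log2 fold change of 0.03, with 95% intervals from -0.12 to 0.17 for Smad2 and from -0.11 to 0.16 for Smad3. Their sign turned after a repeated quantile normalization (-0.048 and -0.06) and after cyclic loess (-0.032 and -0.026).

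Smad7, which holds the TGF beta receptors in check and is itself induced by the pathway, had one of the 2 largest log2 fold changes among the members. Its log2 values were 6.54, 6.32, 6.56 and 6.35 at 14 weeks and 6.38, 6.85, 6.86, 6.63 and 6.72 at 96 weeks. Replicates 2 to 5 of the old kidneys lay above all young ones, and old replicate 1 lay between them. Its log2 fold change was 0.25 (standard error 0.101, 1.19-fold, adjusted p = 0.14 from limma). Over the alternatives it lay between 0.21 and 0.33 and the adjusted p between 0.054 and 0.28, the lowest without old replicate 1.

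Ccn2, the matricellular connective tissue growth factor and a classical target of TGF beta, did not overlap between the ages, with all 5 old kidneys above the 4 young ones, yet did not pass after adjustment. At 14 weeks its log2 values were 8.90, 8.93, 8.93 and 8.91, and at 96 weeks they were 9.10, 9.49, 9.07, 9.06 and 9.12. The young kidneys were within 0.03 of each other by these values, the smallest span of any member at that age, and old replicate 2 stood apart from the other 4 old kidneys. In log2 terms Ccn2 differed by 0.25 (standard error 0.085, 1.19-fold, adjusted p = 0.098 from limma), and groups without overlap in the upward direction were seen for 7.49% of all genes. Without old replicate 2 it was 0.17, with a narrower spread (adjusted p = 0.062 from limma). Over all alternatives the log2 fold change lay between 0.17 and 0.32 and the adjusted p between 0.062 and 0.21. The highest came after a repeated quantile normalization (0.17, limma adjusted p = 0.21), where Ccn2 did not pass at an unadjusted p under 0.05 either. The genes whose scaled values were closest to those of Ccn2 over the 9 arrays were Mtmr9, Alg9 and Gak, with mean absolute differences of 0.144, 0.163 and 0.168 SD, where the median over all genes was 1.09 SD. Each of them was highest in old replicate 2 as well (7.60, 8.68 and 9.05), and they were picked out of 19938 genes for this likeness. For Smad7 the closest genes were Rhobtb3, Stau1 and Wsb1 (0.302 to 0.312 SD).

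Bmp7 had the largest negative log2 fold change of the members, and it did not pass either. Its log2 values were 8.28, 8.63, 8.35 and 8.39 at 14 weeks and 8.32, 8.33, 8.02, 8.11 and 8.32 at 96 weeks. Old replicates 3 and 4 lay below all young kidneys, and the other 3 old kidneys lay within the young range. For Bmp7 the log2 fold change was -0.20 (standard error 0.0914, 0.873-fold, adjusted p = 0.19 from limma). It was -0.12 without young replicate 2, the highest of all, and -0.09 without old replicates 3 and 4, while a repeated quantile normalization gave -0.29 (adjusted p = 0.072 from limma). The closest genes over the 9 arrays were Myrfl and Slc26a8, both at log2 values of at most 4.36, and Fgf9 (mean absolute differences 0.127, 0.171 and 0.18 SD, median over all genes 1.01 SD). Fgf9, a growth factor that maintains nephron progenitors during development, was highest in young replicate 2 (9.11) and lowest in old replicate 3 (8.20), followed by old replicate 4 (8.32).

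For 7 of the 10 members the SD among the old kidneys exceeded the difference between the ages, as it did for 48.2% of all genes. Replicate 3 at 96 weeks held the highest of the 9 values for Tgfb1, Tgfb2, Tgfbr1, Tgfbr2, Smad2, Smad3 and Smad7, 7 of the 10 members, and the lowest value for Bmp7. Over all genes this array held the highest value for 7.8%, and for 8.96% of the genes that passed a filter at the 30th percentile of signal. It was the highest for the same 7 members after a repeated quantile normalization and after cyclic loess. Of the 115 other genes measured in the pathway lists 31 (27%) were highest in this kidney. The array was singled out after its values had been seen, and this count comes from 1 mouse. The SD was wider at 96 than at 14 weeks for 8 of the 10 members and for 58.9% of all genes. Without replicate 3 it was wider for 7 members and for 56.8% of all genes.

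Markers of several cell types also varied among the old kidneys. Replicates 3 and 4 at 96 weeks had the highest means of 11 macrophage markers (0.86 and 0.97 on a log2 scale centred per gene, against -0.11 to 0.14 in the other old and -0.51 to -0.39 in the young kidneys). Of these markers Lyz2, Csf1r and Tyrobp passed as higher and none as lower, although Csf1r was lowest among the old kidneys in replicate 3 (8.33). Their summed linear signal over the 11 genes was 1370 to 1530 at 14 weeks and 2140 to 4840 at 96 weeks. Lyz2 (log2 7.35 to 7.86 in young and 9.20 to 10.91 in old kidneys) was the largest single term of the old sum. All 11 markers had log2 fold changes above 0. Outside replicates 3 and 4 the old values of Itgam (4.68 to 4.75) and Adgre1 (6.36 to 6.59) were near the young ones (4.37 to 4.75 and 6.09 to 6.31). The 12 fibroblast and pericyte markers were highest in the same 2 kidneys (0.18 and 0.15, against at most 0.00 elsewhere; summed signal 1960 to 2190 and 1940 to 2830), with 0 passing in limma (2 higher by unadjusted p), and 3 and 5 of them lay below their own means there. The 6 T cell markers were highest in replicate 4 (1.64) and replicate 1 (0.63), with 0.14 in replicate 3 (summed signal 344 to 374 and 325 to 1940, 0 passing and 3 higher unadjusted). The 5 markers of B and plasma cells were highest in the same order (1.94 and 1.21, with 0.76 in replicate 3, summed signal 200 to 214 and 864 to 2300, 1 passing and 4 higher unadjusted). The 1 that passed was Jchain (4.85 to 5.25 in young and 9.34 to 10.90 in old kidneys), which made up most of the old summed signal. Ms4a1 was 4.58, 4.83 and 4.69 in old replicates 2, 3 and 5, against 4.47 to 4.63 in young kidneys. The mean of 10 markers of distal tubule and collecting duct, where Bmp7 is known to be made, was lowest in replicates 3 (-0.27) and 4 (-0.18), against 0.01 to 0.15 in the other 7 kidneys, with a summed signal of 7990 to 8420 at 14 weeks and 5850 to 9050 at 96 weeks (0 passing, 1 higher and 3 lower unadjusted). In replicate 3 this mean was carried by the distal convoluted tubule genes Pvalb (7.31, against 8.87 to 9.53 elsewhere), Calb1 (9.99) and Slc12a3 (11.27), and 4 of the 10 markers lay below their own means, whereas in replicate 4 it was 9 of 10. Means of the 6 thick ascending limb markers (-0.09 and -0.14) and the 8 proximal tubule markers (-0.08 and -0.12) were also lowest in these 2 kidneys, with 0 markers passing. Of the thick limb markers 4 in replicate 3 and 6 in replicate 4 lay below their own means, and of the proximal markers 6 in each. In replicate 3 the thick limb mean was carried by Egf (11.68, against 12.24 to 12.58 elsewhere), whereas Cldn16 was at its highest there (10.63). The 5 podocyte markers lay between -0.10 and 0.21 in all kidneys, and Wt1 alone passed, as lower. Young replicate 2, with the highest Bmp7 and the highest young Tgfb1, had the highest means of 4 platelet markers (0.45, against at most 0.03 elsewhere) and 5 adipocyte markers (0.33, against at most 0.05). The platelet mean was carried mostly by Ppbp (7.30, against 5.29 to 6.10 elsewhere). Pf4 was 5.41 there (4.88 to 5.37 elsewhere), and Itga2b (6.19) and Gp9 (5.38) lay within the values of the other kidneys. Among the adipocyte markers Adipoq stood out most (5.50, against 4.19 to 4.79 elsewhere). The part of these cell types in the values of the members was not tested.

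**Figure D3:**
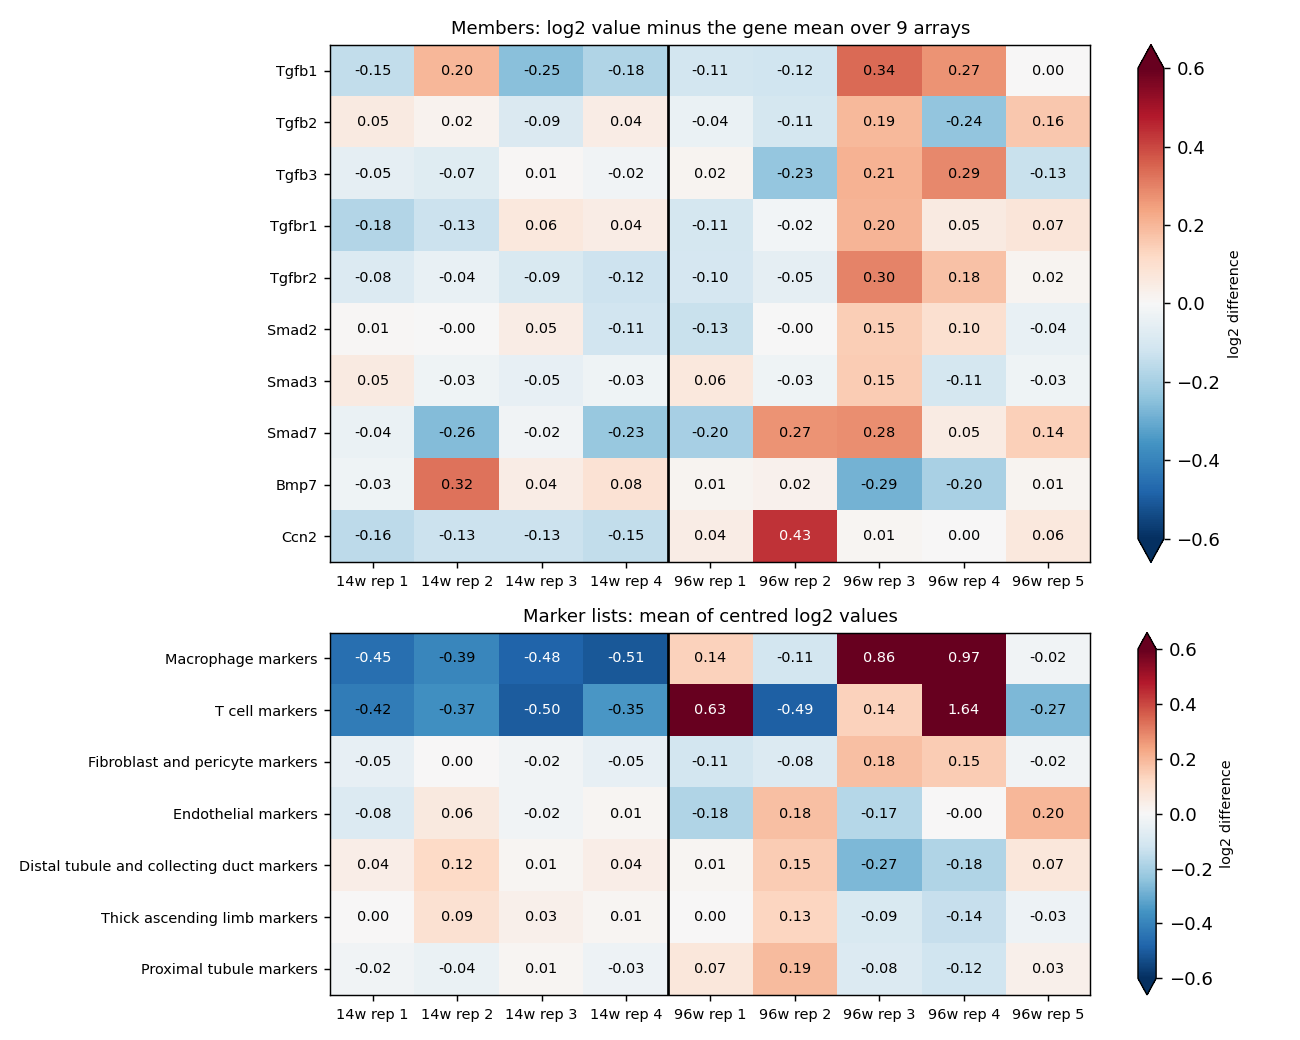
Top, log2 value of each member minus its mean over the 9 arrays; bottom, mean centred log2 value of 7 marker lists, in the same order of arrays (columns, with the line between the ages). Colours are cut at 0.6 either way and the values are written in the cells; old replicate 3 is positive for the ligands, receptors and Smads and negative for Bmp7 (-0.29) and for the mean of the distal tubule and collecting duct list (-0.27), of which 4 of 10 markers lay below their means there.

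In the lists of TGF beta and BMP signalling 115 other genes were measured, of which 6 rose and 4 fell by the same test, 5.22% and 3.48%, against 4.31% and 2.4% of all genes. After a repeated quantile normalization 2 rose and 3 fell, where all genes split into 484 higher and 505 lower in place of 860 and 479. Without old replicates 3 and 4, 2 rose and 2 fell. The number that rose was 0 without young replicate 4, 1 without young replicates 1 or 3 or old replicate 4, and 2 without old replicates 2 or 5. The number that fell was 2 without young replicates 2, 3 or 4 or old replicates 1, 4 or 5. The median log2 fold change was -0.01 for these genes and -0.03 for all genes.

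Ccn1, of the same family of matricellular proteins as Ccn2, had the largest rise among them. Its log2 values were 9.09, 9.29, 8.69 and 8.43 at 14 weeks and 9.54, 9.50, 10.16, 9.88 and 9.55 at 96 weeks, and the groups did not overlap. This was a log2 fold change of 0.85 (standard error 0.189, 1.8-fold, adjusted p = 0.03 from limma; 0.65 and adjusted p = 0.077 without old replicates 3 and 4). The call was also lost without young replicate 3 (0.79, adjusted p = 0.076), young replicate 4 (0.70, 0.079) or old replicate 4 (0.81, 0.054). Of the 5 other CCN genes 1 rose and none fell, and Ccn5 differed by -0.26 on the log2 scale without passing (limma adjusted p = 0.078).

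Of 17 TGF beta target genes measured, 1 rose and 1 fell. At an unadjusted p under 0.05 in limma 4 were higher and 2 lower, against 13.3% and 15.3% of all genes. Tgfbi, a secreted adhesion protein, had log2 values of 7.15, 7.11, 6.86 and 6.99 at 14 weeks and of 7.43, 7.50, 8.29, 7.95 and 7.49 at 96 weeks, highest in replicates 3 and 4. The rise was 0.70 in log2 terms (standard error 0.168, limma adjusted p = 0.037), and 0.44 without these replicates (adjusted p = 0.021). Leaving out any 1 young array, old replicate 2 or old replicate 4 ended the call of Tgfbi, with values of 0.65 to 0.76 and adjusted p from 0.051 to 0.097. A repeated quantile normalization (0.64, limma adjusted p = 0.057) and cyclic loess (0.66, 0.059) ended it as well. Snai2, a repressor of epithelial genes, fell by 0.63 (standard error 0.117, adjusted p = 0.016 from limma), from 8.31 to 8.49 at 14 weeks to 7.42 to 7.99 at 96 weeks, and missed the threshold without young replicate 4 (-0.60, adjusted p = 0.053). The matrix genes Col1a1, Col1a2 and Col3a1, also among the fibroblast markers, had log2 fold changes of -0.02, -0.03 and -0.01, examples that were taken with their values in view. Picked in the same way, Acta2 (0.33), Tagln (0.16) and Bhlhe40 (0.44) were higher and Snai1 (-0.26) lower by unadjusted p alone. The list median was 0.07.

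Among 12 genes that store or activate latent TGF beta, 1 rose and none fell (median 0.12). Thbs1, a matrix protein that can release the active ligand, rose by 0.38 in log2 terms (standard error 0.0933, limma adjusted p = 0.041), although its groups overlapped at 8.39 to 8.81 and 8.78 to 9.12. Leaving out young replicate 2 or old replicate 1 kept the call of Thbs1, which was 0.31 to 0.40 and did not pass without any other single array (adjusted p from 0.058 to 0.11). Thbs1 did not pass after a repeated quantile normalization (0.29, limma adjusted p = 0.087) or cyclic loess (0.31, 0.08) either. Itgb5, an integrin subunit, differed by 0.26 on the log2 scale without passing (limma adjusted p = 0.084). Of 7 co-receptors and receptor regulators 1 rose and none fell (median 0.04). Eng, the endothelial co-receptor endoglin, had log2 values of 7.95 to 8.37 at 14 weeks and of 8.44 to 8.81 at 96 weeks, with no overlap. It rose by 0.44 in log2 terms (standard error 0.107, limma adjusted p = 0.038). The means of the 8 endothelial markers were from -0.18 to 0.20 in old and from -0.08 to 0.06 in young kidneys, and 0 of these markers passed in limma (1 lower unadjusted). Within each age Eng and this mean ran in the same order. Both were highest in young replicate 2 (8.37 and 0.06) and old replicate 5 (8.81 and 0.20). Both were low in young replicate 1 (7.95 and -0.08) and in old replicates 1 (8.44 and -0.18) and 3 (8.44 and -0.17). The part of endothelial cells in the values of Eng was not tested. The call of Eng was lost without young replicates 1, 3 or 4 or old replicates 2, 4 or 5 (0.36 to 0.46, adjusted p from 0.066 to 0.086), and after a repeated quantile normalization (0.35, 0.076). Cyclic loess also ended it (0.38, limma adjusted p = 0.064). Nrp1 differed by 0.21 on the log2 scale without passing (limma adjusted p = 0.16).

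Of 20 further Smads and Smad regulators none rose and 1 fell (median 0.01). Wwp1, a ubiquitin ligase known to act on Smad signalling, fell by 0.36 (standard error 0.0483, adjusted p = 0.0053 from limma). Its log2 values spanned 11.25 to 11.30 in young and 10.87 to 11.03 in old kidneys, and it passed whichever single array was left out. Ppm1a, a phosphatase of Smad2 and Smad3, differed by 0.23 on the log2 scale without passing (limma adjusted p = 0.054) and passed under 5 of 18 alternatives.

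On the BMP side, 2 of 20 other ligands fell (10%, against 2.4% of all genes) and none rose (median -0.10). At an unadjusted p under 0.05 in limma 7 ligands were lower and 0 higher, against 15.3% and 13.3% of all genes. The ages did not overlap for 3 ligands, all lower at 96 weeks, against 5.79% of all genes. None of 11 receptors passed (median -0.04, 0 at an unadjusted p under 0.05 in limma). Bmp8b fell by 0.30 (standard error 0.0726, adjusted p = 0.038 from limma), with 6.35 to 6.68 in young and 6.11 to 6.29 in old kidneys. Inha, the alpha subunit of inhibin, fell by 0.28 (standard error 0.0725, adjusted p = 0.048 from limma), with young values of 5.80 to 6.09 and old values of 5.62 to 5.80. Bmp8b passed without young replicate 1 or old replicate 3 but not without any other single array (-0.32 to -0.24, adjusted p from 0.058 to 0.081). Inha passed without young replicate 4 but not without any other array (-0.30 to -0.25, adjusted p from 0.054 to 0.11). With all arrays, neither passed in limma after a repeated quantile normalization (Bmp8b -0.28, adjusted p = 0.057; Inha -0.22, adjusted p = 0.11). The same held after cyclic loess (Bmp8b -0.26, limma adjusted p = 0.068, and Inha -0.21, adjusted p = 0.12). The receptor genes Bmpr1b and Bmpr2 had log2 fold changes of -0.16 and -0.11. Of 15 antagonists and modulators 1 rose and none fell (median -0.05). Grem1, which encodes the secreted BMP antagonist gremlin, had log2 values of 6.70, 6.72, 6.56 and 6.38 at 14 weeks and of 6.99, 6.85, 7.53, 7.28 and 6.94 at 96 weeks. The ages did not overlap, with old replicates 3 and 4, those of the lowest Bmp7, at the top. It rose by 0.53 in log2 terms (standard error 0.137, limma adjusted p = 0.046; 0.34 and adjusted p = 0.064 without these 2 kidneys). With single arrays left out Grem1 passed without old replicate 2 alone, and otherwise lay between 0.43 and 0.58 (adjusted p from 0.05 to 0.12). Its call was also lost after a repeated quantile normalization (0.52, limma adjusted p = 0.055) and after cyclic loess (0.53, 0.06). Crim1, which binds BMPs, differed by 0.27 on the log2 scale without passing (limma adjusted p = 0.087).

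Of 10 BMP target genes 1 rose and none fell (median 0.02). Id2, an inhibitor of helix-loop-helix factors, was 10.20 to 10.45 at 14 weeks and 10.48 to 10.98 at 96 weeks, with no overlap. It rose by 0.48 in log2 terms (standard error 0.102, limma adjusted p = 0.025), and missed the threshold without young replicates 1 or 4 or old replicates 2 or 5 (0.43 to 0.48, adjusted p from 0.05 to 0.078). Id1 differed by 0.34 on the log2 scale without passing (limma adjusted p = 0.091).

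**Figure D4:**
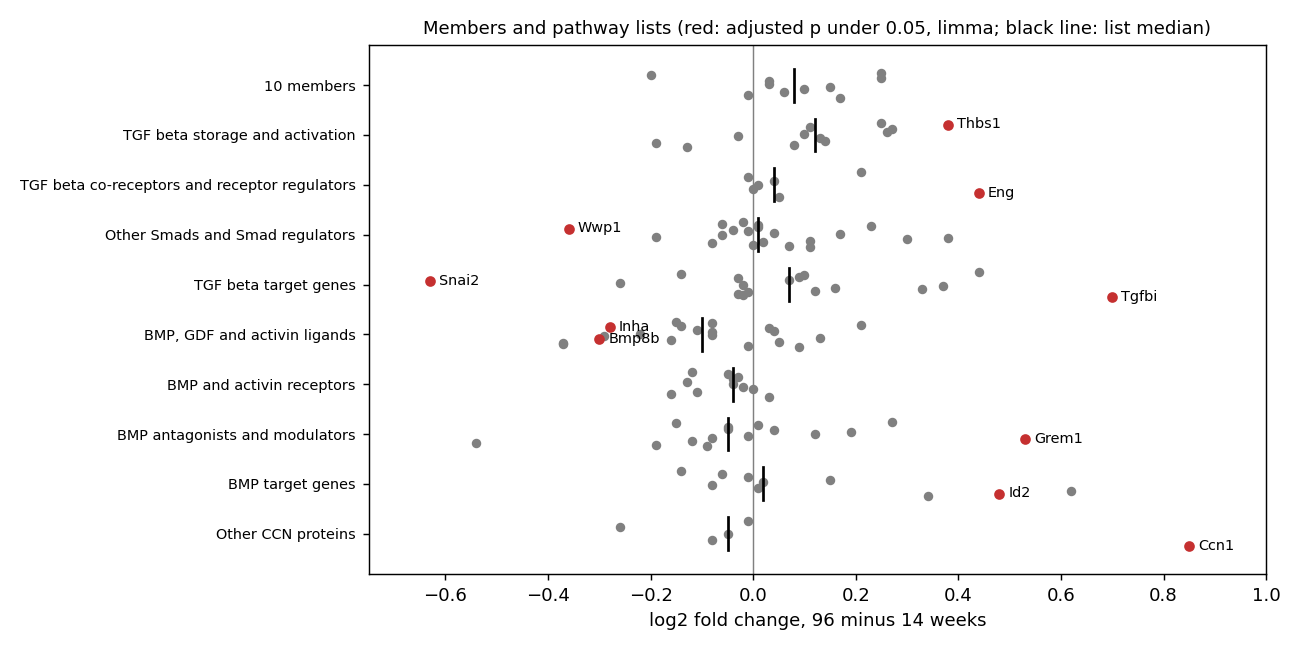
Log2 fold change (96 minus 14 weeks, horizontal axis) of the 10 members and of every measured gene of 9 pathway lists. Genes that passed in limma are red and the rest grey, and a short black line marks each median; no member is red, Ccn1 lies farthest to the right at 0.85, and Smad6 and Smad9 stand in 2 lists.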

How the data were processed

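The deposited log2 values of 35557 probe sets had been computed by the authors with Affymetrix Power Tools (1.12.0), which applied RMA with quantile normalization. The sources used here do not name the annotation's genome build. Probe sets with several symbols (1621) or none (12147) were left out, and each of the resulting 19938 genes was represented by its brightest probe set. Matching to lists used gene IDs of the GRCm38.p6 table where symbols had changed. Signal over background was not given, so that a dim gene could not be told from an absent one.

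The ages were tested in R 4.3.3 with lmFit and eBayes of limma 3.58.1 (two-sided) on all genes and 9 arrays, with Benjamini-Hochberg adjustment over all genes. Python 3.11.15 was used for the other steps. Members, lists and tests were chosen with earlier results of these data known. Named were all members, per list the genes that passed (the 5 with the smallest p where more passed, the 2 with the smallest p where fewer than 2 passed), and for the 3 members with the smallest p the 3 genes of most similar values; any other pathway gene is marked as picked afterwards, and marker genes serve as checks. On simulated arrays with 19938 genes the test recovered 28.4% of 67 changes of 0.3 on the log2 scale, 71.6% of 67 of 0.5 and 90.9% of 66 of 1, with noise independent between genes. Per the methods there were 5 mice of either age, and 4 arrays at 14 weeks were analysed here. No pair of arrays held identical values (highest correlation 0.997). Young arrays had narrower distributions than old ones, so that scaling was among the alternatives. Lower quartiles were 5.29 to 5.33 in young and 5.18 to 5.26 in old arrays, and upper quartiles were 7.92 to 7.98 and 8.01 to 8.08. The tubule markers Umod (12.83 to 12.86 in young, 12.78 to 12.92 in old kidneys) and Lrp2 (12.69 in all young, 12.51 to 12.87 in old) were bright on all arrays of this whole kidney tissue.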

Additional observations from a re-analysis of the deposited data

Results flagged for a closer look

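Among 28 genes named above, each tested for an outlying kidney at both ages (56 groups), 2 groups held one, where chance gives about 1 in 20 groups. Ccn2 was 9.49 in replicate 2 at 96 weeks, against 9.06 to 9.12 in the other 4 old kidneys. Wwp1 was 11.03 in the same kidney, against 10.87 to 10.90 in the others. This array held the highest value of 14.7% of all genes, and of 19.4% of the genes that passed the signal filter at the 30th percentile. It also had the highest mean of the proximal tubule markers (0.19, against -0.12 to 0.07 in the other old kidneys). Its means of the podocyte (0.21), thick ascending limb (0.13) and distal tubule and collecting duct markers (0.15) were the highest of all kidneys too. Those of the macrophage (-0.11), T cell (-0.49) and B and plasma cell markers (0.05) were the lowest among the old kidneys.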

How the results depend on the processing

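No member passed at an adjusted p under 0.05 in any of the 18 alternatives run, and of 179 member values 163 kept their sign. Tgfb2 turned positive with array weights (0.028), without young replicate 1 (0.0026), without old replicates 2 (0.013) or 4 (0.045), and without old replicates 3 and 4 together (0.00011). Tgfb3 turned negative without old replicate 4 (-0.0018) and without replicates 3 and 4 (-0.08), and it was the only member below the 30th percentile of signal. With single arrays left out, Tgfb2 ranged from -0.06 to 0.045, Tgfb3 from -0.0018 to 0.13, Tgfbr1 from 0.05 to 0.13, Smad2 from -0.0069 to 0.06 and Smad3 from -0.011 to 0.05. Tgfbr1 was -0.0013 after a repeated quantile normalization. Smad2 was negative after this step (-0.048), after cyclic loess (-0.032), without young replicate 4 (-0.0063), without old replicate 3 (-0.0069) and without old replicates 3 and 4 (-0.046). Smad3 was negative after the same scalings (-0.06 and -0.026) and without old replicate 3 (-0.011). Tgfb1, Tgfbr2, Smad7, Bmp7 and Ccn2 kept their sign in all alternatives. Of the pathway genes, 6 rose and 4 fell; by the methods' t-test 0 and 1 did, after a repeated quantile normalization 2 and 3, after cyclic loess 2 and 3, and without old replicates 3 and 4 together 2 and 2. With single arrays left out 0 to 6 rose and 2 to 3 fell, and the count over all genes was also lower with fewer arrays, 374 higher and 154 lower without young replicate 4. None of the 18 pathway genes named changed sign. Wwp1 passed in 17 of 18 alternatives (adjusted p = 0.052 with the block), Snai2 in 16, Ccn1 in 12, Id2 in 11, Eng and Tgfbi in 8, Thbs1 and Bmp8b in 6, and Inha and Grem1 in 5. Deviations of same-numbered young and old arrays had correlations of -0.0375 to 0.0762 over genes, against -0.0875 to 0.063 for arrays of different number. The labels name no pairing, and this check cannot exclude a shared batch. With the replicate number as a block 1 pathway gene rose and 1 fell, no member passed, and Ccn2 was 0.26 (limma adjusted p = 0.14). The cause of these differences was not tested. The count of members highest in old replicate 3 under other scalings was added after seeing the data. Changes near 0.25, as for Ccn2 and Smad7, lie below the 0.3 at which the simulated test recovered 28.4%. Far fewer genes changed in that simulation than the 1339 that passed in the data, so its adjustment was stricter. The share is thus not the recovery of such changes here.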

Other observations

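Further genes were picked after their values were seen. Bmp4, a ligand that also acts in kidney development, was lower in every old kidney (8.28 to 8.80) than in every young one (8.84 to 9.05), with a log2 fold change of -0.37 that narrowly missed the threshold (standard error 0.098, adjusted p = 0.051 from limma). Tgif1, a corepressor of Smads, was higher in every old kidney (7.79 to 8.40) than in every young one (7.55 to 7.69), differing by 0.38 on the log2 scale (limma adjusted p = 0.058), and it was highest in replicate 3. Chrdl1, a BMP antagonist, was 6.60 in replicate 3 at 96 weeks, against 7.98 to 8.50 in the other old and 8.23 to 8.53 in the young kidneys (difference of -0.54 on the log2 scale, limma adjusted p = 0.27). Id3, a target of BMP signals, differed by 0.62 on the log2 scale without passing (limma adjusted p = 0.1), with the highest values in old replicates 5 (7.97) and 4 (7.77) and 7.26 in replicate 3.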
